A study of Homo sapiens with 3 samples.

Results

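The zinc finger genes of chromosome bands 19q13.3 and 19q13.4 lie in 2 tandem clusters and are described here across the 3 libraries of a knockdown experiment. They were chosen by symbol, from a list of 50 genes, and 37 of the 50 were among the 12040 genes of the deposited table. Of the 18 genes listed for 19q13.3, 17 were in the table, and of the 32 listed for 19q13.4, 20 were. ZNF112 of the first cluster and ZNF347, ZNF415, ZNF528, ZNF578, ZNF600, ZNF610, ZNF665, ZNF677, ZNF808, ZNF813, ZNF836 and ZNF880 of the second were not analysed here, beyond their sequences.

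The study knocked down DICER1 by transfected RNA interference in HEK293 cells, an established line from human embryonic kidney, and used a DROSHA knockdown and a mock transfection as controls. DICER1 knockdown, DROSHA knockdown and mock transfection each gave 1 library of poly(A) RNA. All 3 were labelled 2.5d and came from a T-REx Flp-In derivative carrying FLAG-tagged DICER1, so that the transgene was part of the mock culture too. The labels do not say whether the transgene was switched on.

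Most of these proteins pair an array of C2H2 zinc fingers, which read DNA, with an N-terminal KRAB domain, which recruits the corepressor TRIM28 (KAP1) and through it the histone methyltransferase SETDB1. Many KRAB zinc finger proteins bind transposable elements and keep them silent, and the family grew by tandem duplication, above all on chromosome 19. DROSHA and DICER1 act in sequence to release mature miRNAs, which guide Argonaute proteins to mRNAs through the seed, bases 2 to 8 of the miRNA. Because the finger units repeat, a seed match in the DNA that encodes a finger can recur many times in a single zinc finger mRNA, and members of the miR-23 and miR-181 families are known to have such coding matches.

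The sequences below show these repeated matches, since the 2 clusters differed in how many of each they carried. The mature miRNAs are from RefSeq (GRCh38.p14) and carry the seed in capitals.
hsa-miR-23a-3p: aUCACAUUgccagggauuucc
hsa-miR-181a-5p: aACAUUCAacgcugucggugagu
The seed of miR-23a is shared with miR-23b-3p and miR-23c, and that of miR-181a with miR-181b-5p, miR-181c-5p, miR-181d-5p and miR-4262. The matching letters are AATGTGA for miR-23 and TGAATGT for miR-181, searched on the transcript strand.

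Each coding stretch below spans 56 codons from the reference transcript (GENCODE release 29) and starts 4 codons before the first cysteine of a finger. In ZNF225, ZNF227, ZNF229 and ZNF845 the capitals mark the miR-23 letters, and in ZNF432 the miR-181 letters. ZNF225 and ZNF845 had the most miR-23 matches of their clusters among measured genes, ZNF432 had the most miR-181 matches, and ZNF227 and ZNF229 stood at the ends of the comparisons described further on.
ZNF225 (19q13.3), coding bases 1444 to 1611: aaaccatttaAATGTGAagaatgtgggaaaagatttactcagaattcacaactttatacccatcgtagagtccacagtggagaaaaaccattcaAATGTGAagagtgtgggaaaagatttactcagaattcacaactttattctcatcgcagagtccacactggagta
ZNF227 (19q13.3), coding bases 1720 to 1887: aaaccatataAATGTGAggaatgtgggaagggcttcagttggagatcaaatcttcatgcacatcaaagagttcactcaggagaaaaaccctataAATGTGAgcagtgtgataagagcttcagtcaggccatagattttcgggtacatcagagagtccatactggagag
ZNF229 (19q13.3), coding bases 1039 to 1206: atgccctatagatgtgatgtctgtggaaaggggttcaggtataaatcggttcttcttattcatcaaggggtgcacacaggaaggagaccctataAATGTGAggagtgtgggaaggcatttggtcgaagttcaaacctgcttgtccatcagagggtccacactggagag
ZNF432 (19q13.4), coding bases 775 to 942: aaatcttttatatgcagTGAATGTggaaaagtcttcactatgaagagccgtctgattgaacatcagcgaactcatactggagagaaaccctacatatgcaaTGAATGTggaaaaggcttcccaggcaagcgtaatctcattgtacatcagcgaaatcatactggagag
ZNF845 (19q13.4), coding bases 973 to 1140: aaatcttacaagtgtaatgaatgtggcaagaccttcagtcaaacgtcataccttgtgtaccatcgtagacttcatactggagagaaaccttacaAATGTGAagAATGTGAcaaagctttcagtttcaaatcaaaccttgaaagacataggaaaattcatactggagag

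In the stretches of ZNF225, ZNF227 and ZNF432 the marked match recurred at the same place in successive fingers. In that of ZNF845 both marked matches lay in the same finger, and that of ZNF229 held 1. Over the 50 coding sequences there were 218 miR-23 matches and 198 miR-181 matches. Of the miR-23 matches, 217 lay in the same reading frame, and 113 spelled the residues Lys, Cys and Glu around the first zinc-binding cysteine. Of the miR-181 matches, 197 lay in 1 frame, and 107 spelled Asn, Glu and Cys, which end on the cysteine that follows. The 2 sets of letters can overlap, and did so at 18 places.

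The 2 clusters differed in how many of each match they carried. In 19q13.3, 17 of 18 coding sequences held a miR-23 match, with a median of 6.5 per gene, and the 18 genes held only 18 miR-181 matches in all. In 19q13.4, 30 of 32 held a miR-181 match, with a median of 5 per gene, and 27 of 32 also held a miR-23 match, with a median of 2.5. The miR-23 matches numbered 115 in 19q13.3 and 103 in 19q13.4. ZNF180 was the exception in 19q13.3, with 11 miR-181 matches and 0 of miR-23. In 19q13.4, 10 of 32 genes had more miR-23 than miR-181 matches. Among these, ZNF765 and ZNF761 had 5 and 10 miR-23 matches and 0 of miR-181. A miR-23 match was present in 88.0% of the 50 genes and a miR-181 match in 74.0%, against 17.7% and 17.2% of 3919 other genes of the table with a coding sequence in the same range of length (1389 to 2913 bases). At least 3 miR-23 matches were found in 64.0% of the 50 genes, against 1.15% of those genes, and at least 3 miR-181 matches in 60.0%, against 3.47%. Other zinc finger genes carried the matches too. Of 360 unlisted genes of the table with 5 or more C2H2 fingers, 46.9% had a miR-23 match and 66.1% a miR-181 match. At least 3 matches were found in 13.6% of these 360 for miR-23 and in 45.0% for miR-181. In the 3′ UTR, miR-23 matches were found in 15 of the 50 genes (30.0%, against 18.7% of all genes with a reference transcript) and miR-181 matches in 9 (18.0%, against 19.4%). A match describes letters in a transcript and does not show that a miRNA binds there.

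**Figure D1:**
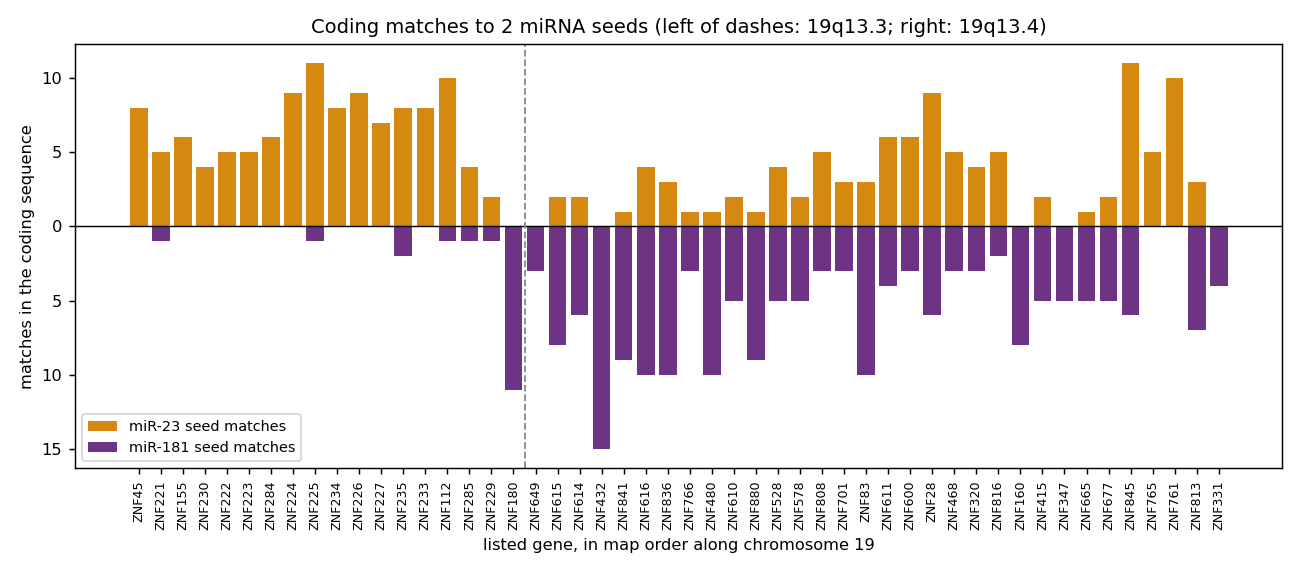
Number of matches to the miR-23 seed (upward bars) and to the miR-181 seed (downward bars) in the coding sequence of all 50 listed genes, in map order, with a dashed line between the clusters. miR-23 bars fill the 19q13.3 cluster, ending at ZNF180 with its 11 miR-181 matches, and miR-181 bars run through most of 19q13.4 up to 15 in ZNF432. In 19q13.4, 27 of 32 genes have miR-23 bars as well.

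The listed genes were alike in their proteins. They had 7 to 26 C2H2 fingers by spacing of cysteines and histidines, with a median of 13.5, and 462 to 970 residues. The linker TGEKP, which joins neighbouring fingers, was present in all 50. A core of the KRAB A box was found in 41 of 50, 17 of them in 19q13.3 and 24 in 19q13.4, and a protein in which these letters are not found may still have the domain. Transcripts were poor in GC, with a median of 41.7% (37.5% to 46.2%), against 49.1% over 10583 genes of the table with a reference transcript.

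The table had no column names, so that its 3 columns of levels could not be tied to a condition. They are called the first numerator library, the second numerator library and the shared denominator library, because the authors' 2 columns of log2 fold changes equalled the ratio of the first and of the second numerator to the shared denominator after 1 was added to each level. The scale of the levels is not stated, the depth is unknown, and levels are compared between libraries within a gene, not between genes. With 1 library per condition there is no replicate error and no test, and every difference below describes these libraries. DICER1 had levels of 5.72 in the first numerator library, 24.0 in the second and 15.7 in the denominator library, and DROSHA had 21.4, 6.72 and 23.3. Thus DICER1 was lowest in the first numerator library and DROSHA in the second, but no condition was assigned from these values. Over all genes the log2 fold changes had a median of 0.03 for the first numerator and of 0.0063 for the second.

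In the first comparison, first numerator against denominator, the zinc finger genes were shifted slightly downward as a group. Of the 37 measured, 33 were below 0, which is 89.2% of them, against 43.4% of all genes. The median was -0.15, and the range ran from -0.45 to 0.19. None of the 37 reached -0.5, a level that 2.04% of all genes reached, and none was 1 or more in size, against 0.341% of all genes. The medians were -0.12 over 17 genes of 19q13.3 and -0.15 over 20 genes of 19q13.4, and 15 and 18 of them were below 0.

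ZNF227, a KRAB zinc finger gene of 19q13.3, was lowest. Its level was 25.4 in the first numerator library, 46.8 in the second numerator library and 35.1 in the denominator library, a log2 fold change of -0.45 in the first comparison and of 0.40 in the second. ZNF284 followed at -0.35, with levels of 3.00 and 4.99 in the first and second numerator libraries and 4.10 in the denominator library, and ZNF230 at -0.35, with 3.91, 5.80 and 5.25. In all 3 genes the first numerator library was the lowest of the 3 and the second the highest.

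ZNF28, the lowest gene of 19q13.4 in the first comparison, stood at -0.33. Its levels were 1.36 in the first numerator library, 2.64 in the second and 1.97 in the denominator library. ZNF616 stood at -0.29, with levels of 2.80, 3.50 and 3.64 in the same order. ZNF221 of 19q13.3 stood at -0.28, with levels of 4.03, 7.50 and 5.12. ZNF616 differed from the other low genes in that its second numerator level did not exceed the denominator level.

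The 4 genes above 0 in the first comparison were ZNF841 at 0.19, ZNF233 at 0.19, ZNF615 at 0.10 and ZNF235 at 0.048. ZNF841 had levels of 3.22 in the first numerator library, 3.67 in the second and 2.70 in the denominator library. ZNF233 had 3.82, 4.85 and 3.24 in the same order, so that both numerator libraries were above the denominator. ZNF816 at -0.0072 and ZNF229 at -0.04 were next, with nearly equal levels in the first numerator and denominator libraries.

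In the second comparison, second numerator against denominator, the group was shifted upward. Of the 37 genes, 29 were above 0 (78.4%), against 51.1% of all genes. The median was 0.23, with a range from -0.31 to 0.60. Only ZNF229 reached 0.5, which is 1 of 37 or 2.70%, close to the 2.33% of all genes, and none was 1 or more in size, against 0.831% of all genes. The count at 0.5 depended on the constant, with 6 genes when 0.25 was added to each level and 0 when 5 was added. The 2.33% of all genes holds for 1 added, so it cannot be set beside these 2 counts.

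In 19q13.3, 16 of 17 genes were above 0, with a median of 0.34, and in 19q13.4, 13 of 20 were, with a median of 0.18. The exception in 19q13.3 was ZNF180 at -0.01. Some genes carry any of 4 heptamers in the 3′ UTR that were picked on these data because their carriers were low. Without these carriers the medians were 0.32 over 16 genes of 19q13.3 and 0.30 over 7 of 19q13.4. Leaving out genes picked as low can raise a median by itself, so these values cannot be read as a result about the gap between the clusters. The difference between clusters was not tested, since each condition has 1 library. Among genes with a mean level of at least 5, the median of 19q13.3 rested on 10 genes and that of 19q13.4 on 5, and the value over those 5 was -0.10.

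ZNF229 had the highest fold change, 0.60 on the log2 scale. Its levels were 4.32 in the second numerator library, 2.42 in the first and 2.51 in the denominator library. ZNF224, a repressor that can bind the promoter of aldolase A, followed at 0.48, with levels of 3.98 in the second numerator library, 2.47 in the first and 2.56 in the denominator library. In both genes the first numerator and the denominator were close and the second numerator stood apart.

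ZNF221 was at 0.47, ZNF233 at 0.47 and ZNF226 at 0.43 in the second comparison. ZNF226 had a level of 41.7 in the second numerator library, 29.0 in the first and 30.7 in the denominator library. ZNF816, the highest of 19q13.4, was at 0.43, with levels of 2.95, 1.92 and 1.94 in the same order. ZNF45, at the other edge of the 19q13.3 cluster, had 22.1, 15.1 and 17.2, a log2 fold change of 0.34. In each of these 3 genes the second numerator library was the highest.

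The low end of the second comparison was made up of 19q13.4 genes. ZNF649 was lowest at -0.31, with levels of 4.48 in the second numerator library, 5.11 in the first and 5.80 in the denominator library. ZNF701 was at -0.19, with 1.17, 1.31 and 1.48. ZNF331, an imprinted gene of the cluster, was at -0.15, with 9.19, 8.61 and 10.3. In these 3 genes both numerator libraries were below the denominator. ZNF614 at -0.10, ZNF83 at -0.06 and ZNF616 at -0.04 completed the 6 lowest.

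**Figure D2:**
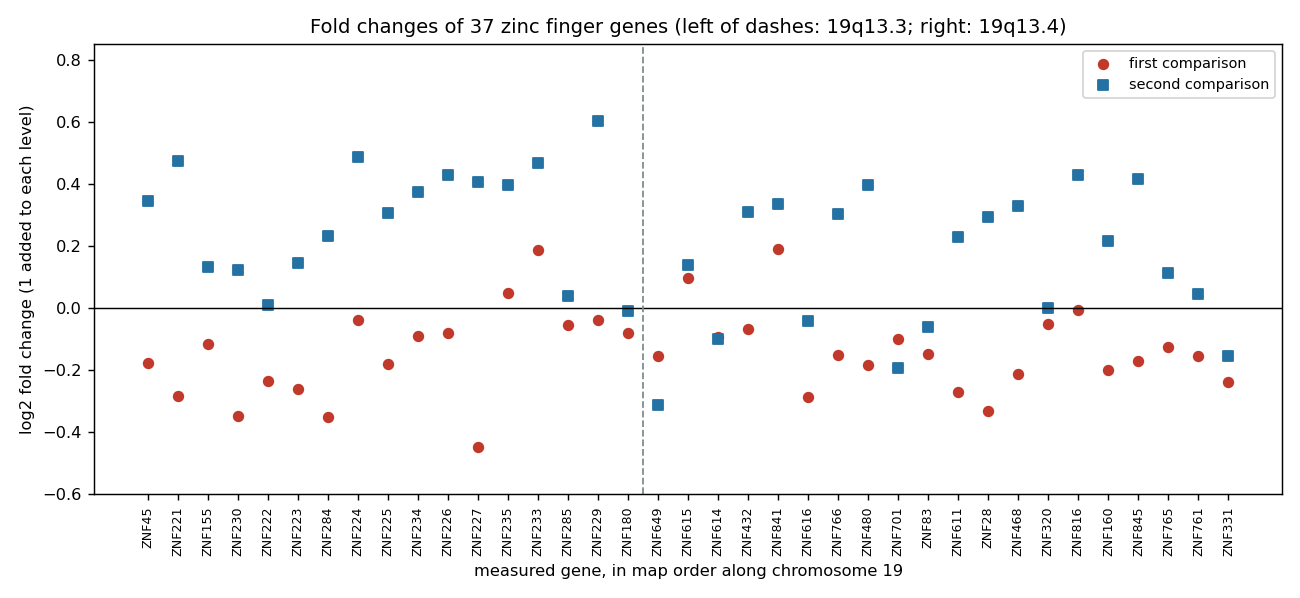
Log2 fold change, after 1 was added to each level, of the 37 measured genes in map order along chromosome 19, in the first comparison (circles) and the second (squares), with a dashed line between the clusters. Circles lie mostly below 0 in both clusters, and squares lie above 0 for 16 of 17 genes left of the line and for 13 of 20 right of it.

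The first numerator library set directly against the second gave the largest shift. This difference, the first minus the second log2 fold change, does not use the denominator library. It was below 0 in 34 of 37 genes (91.9%), against 46.6% of all genes, with a median of -0.41, against 0.02 over all genes. At -0.5 or lower stood 12 genes (32.4%), against 4.82% of all genes, and none was 1 or more in size, against 1.66% of all genes. All 17 genes of 19q13.3 were below 0, with a median of -0.47, and 17 of 20 genes of 19q13.4 were, with a median of -0.24.

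ZNF227 had the largest difference, -0.85, followed by ZNF221 at -0.76, ZNF229 at -0.64, ZNF28 at -0.62, ZNF845 at -0.59 and ZNF284 at -0.58. ZNF845, with 26 fingers the longest array of the group, had levels of 2.64 in the first numerator library, 4.47 in the second and 3.09 in the denominator library. The 3 genes above 0 were ZNF649 at 0.16, ZNF701 at 0.09 and ZNF614 at 0.0075. ZNF615 at -0.04, ZNF320 at -0.05 and ZNF180 at -0.07 were the next highest. ZNF320 had 1.34, 1.42 and 1.42, and ZNF180 had 7.23, 7.64 and 7.70, in the same order of libraries, so that their 3 levels were close.

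**Figure D3:**
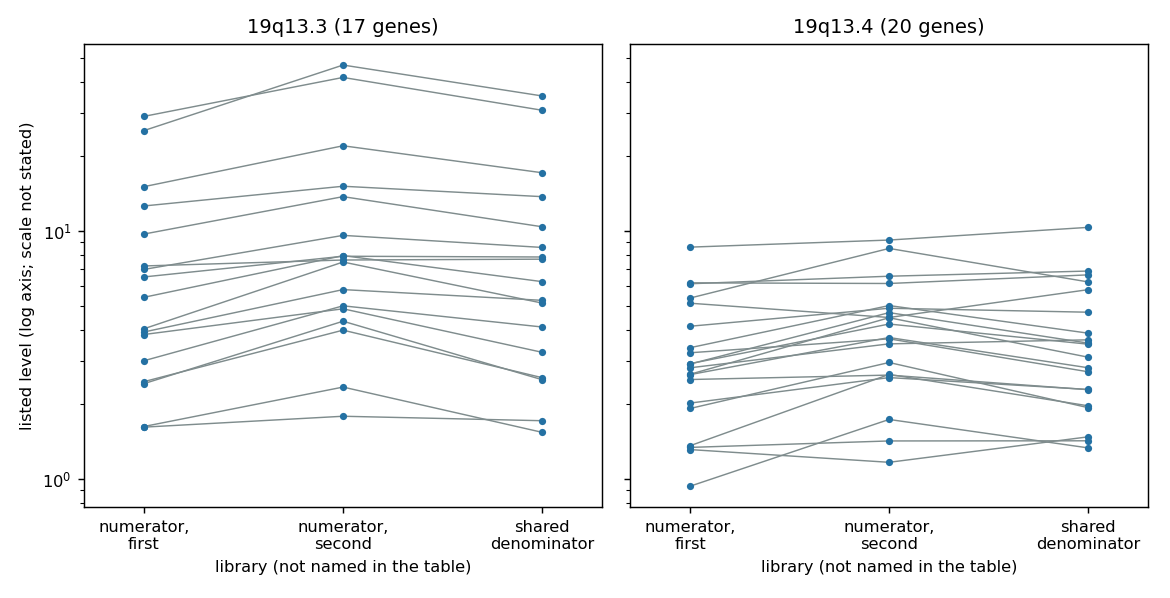
Listed level of each measured gene (log axis, scale not stated) in the first numerator, the second numerator and the shared denominator library, with a line for each gene, 17 genes of 19q13.3 on the left and 20 genes of 19q13.4 on the right. All lines of 19q13.3 climb between the first numerator and the second numerator library, and 3 lines of 19q13.4 do not.

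Other zinc finger genes of chromosome 19 were shifted as well. The difference had a median of -0.47 in 19q13.3 and -0.24 in 19q13.4, against -0.26 over 97 other ZNF genes of 19q, -0.21 over 44 ZNF genes of 19p and -0.05 over 204 ZNF genes on other chromosomes. The 19q13.4 cluster thus lay close to the other ZNF genes of its arm. In the first comparison the medians were -0.15 for the clusters and, for the other 3 groups in that order, -0.08, -0.07 and 0.0059. In the second they were 0.23 for the clusters, then 0.14, 0.11 and 0.06. The interquartile ranges of the difference, -0.52 to -0.14 in the clusters and -0.42 to 0.03 in the other ZNF genes of 19q, overlapped, and no test was possible.

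Other genes of chromosome 19 did not share the shift. The median of the difference was 0.21 over 293 other genes of 19q and 0.20 over 302 of 19p. Their transcripts were also richer in GC, with medians of 60.3% and 61.4%, against 41.7% in the 37 measured zinc finger genes. The part of GC content in this contrast was not tested. Within the clusters the table held 3 more protein-coding genes. ZNF613 had a difference of -0.43 and ZNF350 of -0.31, while PPP2R1A, which encodes a scaffold subunit of protein phosphatase 2A and no zinc finger, had 0.12. Its levels were 112 in the first numerator library, 103 in the second and 106 in the denominator library.

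**Figure D4:**
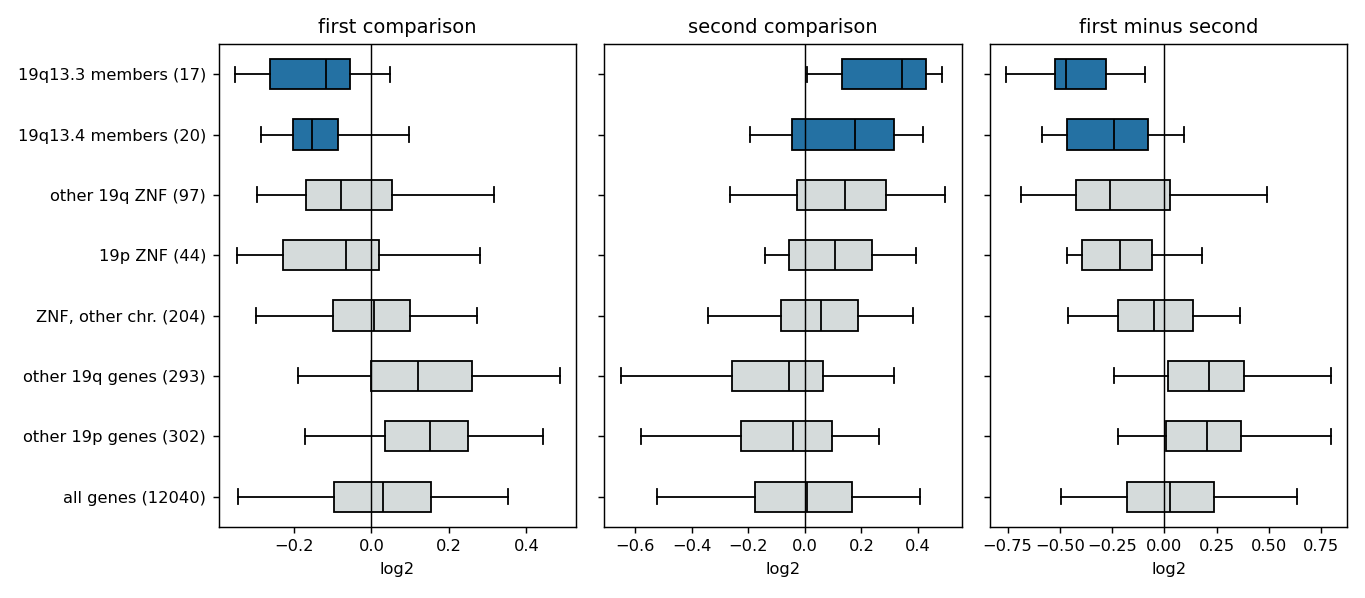
Boxes show the quartiles and whiskers the 5th to 95th percentile over genes of the log2 fold change in the first comparison, the second comparison and their difference, with the number of genes in brackets and the 2 clusters in blue. The clusters have medians of -0.47 and -0.24 for the difference, and other genes of 19q and 19p lie at 0.21 and 0.20.

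GC content moved with the result. Across 10583 genes GC content and the difference had a Spearman rho of 0.47, with genes that share libraries and are not replicates, and the zinc finger genes lay at low GC. Within the 37 genes the rank correlation of the difference with GC content was -0.02. By cluster it was -0.20 over 17 genes of 19q13.3 and 0.34 over 20 genes of 19q13.4. Adjusted over all genes for transcript length and GC content, the median of the 37 was -0.07 in the first comparison, 0.17 in the second and -0.27 for the difference. By cluster, the adjusted difference had a median of -0.31 in 19q13.3 and -0.066 in 19q13.4. At -0.5 or lower were 3 of 37 genes, against 3.13% of the 10583 genes under the same adjustment. The part of GC content in the remaining values was not tested.

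**Figure D5:**
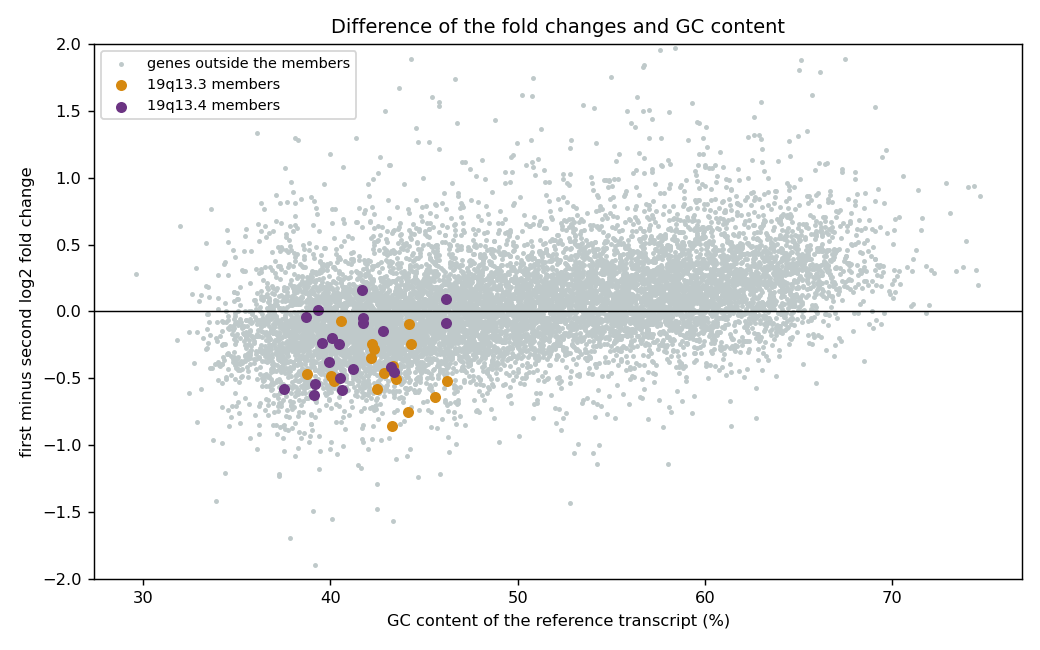
First minus second log2 fold change against GC content of the reference transcript for genes outside the clusters (grey), 19q13.3 genes (orange) and 19q13.4 genes (purple). The vertical axis ends at 2 in either direction and leaves out 11 genes. The coloured points sit between 37.5% and 46.2% GC and mostly below 0, on the low-GC side of a cloud that climbs with GC.

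Among the 37 genes, more coding miR-23 matches went with a lower difference. The rank correlation over the 37 genes was -0.49 for the difference, 0.46 for the second comparison and -0.11 for the first. Genes share libraries, cluster and sequence, and the number of miR-23 matches differs between the clusters. Within clusters the correlation with the difference was -0.25 over 17 genes and -0.41 over 20. For miR-181 matches it was 0.29 over all 37, and 0.19 and -0.12 within the clusters. Protein length also moved with these values. Its correlation over the 37 genes was -0.32 for the difference, 0.50 for the second comparison and 0.23 for the first, and within the clusters it was -0.42 and -0.32 for the difference. For the number of fingers the correlation with the difference was -0.26 over the 37 genes, -0.56 in 19q13.3 and -0.22 in 19q13.4. With the second comparison it was 0.37, 0.55 and 0.29 in the same order. These features were not separated. ZNF229, with the highest fold change in the second comparison, had 2 miR-23 matches and 1 of miR-181. Of the 5 measured genes with 0 coding miR-23 matches, ZNF432 at 0.31 and ZNF160 at 0.21 were above 0 in the second comparison, and ZNF180 at -0.01, ZNF331 at -0.15 and ZNF649 at -0.31 were below.

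A list of KRAB corepressors and other chromatin genes, which also holds KRAB zinc finger genes such as ZNF274 and ZNF445, was looked at too. Of the 33 genes on this list 32 were in the table, with a median of 0.02 for the first comparison and 0.04 for the second. TRIM28 had levels of 217 in the first numerator library, 209 in the second and 206 in the denominator library, and SETDB1 had 19.8, 21.1 and 20.5. The levels of the 2 core corepressors thus lay close together in all 3 libraries. In the first comparison 1 of 32 was at -0.5 or lower, CBX5 at -0.54, which encodes the heterochromatin protein HP1 alpha, against 2.04% of all genes. SUV39H2, a histone methyltransferase, at -0.30 and ZNF274, a KRAB zinc finger gene that binds other zinc finger genes, at -0.23 were next. At the other end stood the histone chaperone subunit RBBP7 at 0.35, MTA1 of the NuRD complex at 0.33 and DAXX, a chaperone of histone H3.3, at 0.24. In the second comparison none of the 32 reached 0.5, against 2.33% of all genes. ATF7IP2 stood highest there at 0.41, then the chromatin remodeller ATRX at 0.30 and the HUSH subunit PPHLN1 at 0.28. UHRF1, which guides maintenance DNA methylation, was lowest at -0.47, followed by CHD3 at -0.24 and CBX5 at -0.19. For the difference the median of the 32 was -0.05. At -0.5 or lower was 1 of 32, ATF7IP2 at -0.57, against 4.82% of all genes. At 0.5 or more was 1 of 32, UHRF1 at 0.68, against 1035 of all 12040 genes.

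Reads of near-identical genes limit single values. The translated coding sequences of ZNF28 and ZNF468 were 91.2% identical, and those of ZNF600 and ZNF611 89.1%. In ZNF320, 99.5% of the 50-base windows of the transcript also occurred in a transcript annotated to another gene, in ZNF223 61.9% and in ZNF284 43.9%, so these values are uncertain. Gene bodies also overlap in the reference. ZNF235 overlaps ZNF227 and ZNF233 on the opposite strand, and no source states a strand setting, so reads that fall where both are transcribed cannot be told apart. On the same strand ZNF432 overlaps ZNF841, ZNF28 overlaps ZNF468, ZNF468 overlaps ZNF320 and ZNF701 overlaps ZNF808, where a strand setting would not separate shared reads.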

How the data were processed

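Poly(A) RNA of HEK293 cells was sequenced after TruSeq library preparation, per the labels. Tools listed without roles in the submitters' processing notes are TopHat2 2.06, Cuffdiff 2.1.1, Cufflinks, SAMtools and CASAVA 1.8.2, with the build hg19. The authors deposited 1 table without column names, with 3 columns of levels, treated as scores because their scale is not stated, and 2 columns of log2 fold changes. The level of the shared denominator was above 1 in every gene listed, and 1 added to each level shrinks fold changes of low genes. The log2 fold changes used were recomputed from the levels and matched the deposited log2 values within 1e-11 in all 12040 genes. No column was tied to a condition by its order or values.

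The genes and lists were chosen with earlier results of these data known. No test was possible with 1 library per condition. Members named with values were the 6 highest and 6 lowest of each comparison and of the difference, and those with the 3 largest and 3 smallest levels, ZNF611, ZNF701 and ZNF320 being the smallest; ZNF611 had levels of 0.933, 1.74 and 1.33 in the first numerator, second numerator and denominator libraries. Of the list of corepressors and other chromatin genes, TRIM28, SETDB1 and the 3 highest and 3 lowest of each comparison were named.

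Map order and coding sequences were read from GENCODE release 29, whose build (GRCh38) differs from the authors', so no coordinates are given. The transcript with the longest complete coding sequence was taken for each symbol, which matched 10583 genes. Fingers were counted as C-X2-C-X12-H-X3-4-H, and the KRAB core was searched in the first 250 residues. Python 3.11.15, pandas 2.3.3, SciPy 1.17.1 and Biopython 1.88 were used. The adjustment for length and GC content was tried on simulated data, whose outcome is not given here and lends the adjusted values no support.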

Additional observations from a re-analysis of the deposited data

How the results depend on the processing

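With no replicates, a median counts as moved where it left the 95% order-statistic interval over the genes, a yardstick and not an error. With 5 added to each level, medians of the 37 genes were -0.088 in the first comparison and -0.19 for the difference. That of 19q13.4 was -0.086 in the first comparison. At this setting 1 gene had a difference of -0.5 or lower, against 1.63% of all genes. A mean level of at least 5 left 15 genes. Of these, 15 were below 0 in the first comparison and 10 above 0 in the second, against 41.4% and 54.2% of 8445 genes. For the difference 13 were below 0, and 5 were at -0.5 or lower, against 4.76% of those 8445 genes for the latter. The median of the second comparison in 19q13.4 then turned to -0.10. After adjustment for length and GC content the first comparison had medians of -0.071 over the 37 genes, -0.052 in 19q13.3 and -0.072 in 19q13.4. The difference in 19q13.4 had a median of -0.066. With this adjustment 3 genes had a difference of -0.5 or lower, against 3.13% of 10583 genes. Carriers of any of 4 heptamers in the 3′ UTR (TGACTTA as well as GTGACTT, and AATCTAA as well as CAATCTA) were also left out. These heptamers had been picked on these data because their carriers were low. In the count 23 genes remained, 21 below 0 in the first comparison, against 39.5% of 9167 genes, and 22 for the difference. The other 88 values stayed within the yardstick or, for counts, within 1.5 times, over these settings, 0.25 added, re-centring on all genes, no genes over 85% identical to another and, chosen after seeing the data, no genes sharing over 10% of their windows. Among these 88, the difference in 19q13.4 at a mean level of at least 5 had a median of -0.085 over 5 genes. It lay at the edge of the interval, against a median of -0.24 over all 20 genes. No paired analysis was possible because each condition has 1 library.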

Other observations

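Outside the 2 clusters, 360 genes of the table encoded 5 or more C2H2 fingers. Their first minus second log2 fold change had a median of -0.13. It was -0.25 over the 146 with 3 or more coding miR-181 matches and under 3 of miR-23, -0.23 over the 33 with 3 or more of miR-23 and under 3 of miR-181, and 0.0067 over the 165 with under 3 of both. GC content moved with these groups: its median was 42.4% in the first, 37.5% in the second and 51.0% in the third, and its part in the difference was not tested. Across the 360 genes the rank correlation of the difference was -0.51 with miR-181 matches, -0.20 with miR-23 matches and 0.50 with GC content. These values are a description, since genes share the libraries.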
